A study of Mus musculus with 6 samples.

Results

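The Slc38 genes encode the sodium-coupled neutral amino acid transporters, known as SNATs. The 9 described here, Slc38a1, Slc38a2, Slc38a3, Slc38a4, Slc38a5, Slc38a6, Slc38a7, Slc38a9 and Slc38a10, were taken by symbol from a count table of 32285 genes, and all 9 had enough counts to be tested. Their transcripts were counted by sequencing mRNA of mouse germline stem (GS) cells, the culture counterpart of the stem cells that sustain sperm production. All 6 libraries came from 1 wild-type GFP-marked line, named DBA-GFP GS cell in the labels. The control group of 3 libraries was grown in complete medium, and the other group of 3 in a medium named for 8 mM pyruvate. The labels give no time in medium, culture number or composition of either medium, and a glucose medium of the design was not analysed here. The study's title names alanine metabolism and energy balance, and SNATs are among the carriers that bring alanine into cells. The family was selected on measured differences between these media in the same 6 libraries, that of Slc38a4 first, with Slc38a1 and Slc38a2 beside it. Differences between the media are therefore given as a description of these 6 libraries, with no test read for the 9 members.

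SNATs carry small neutral amino acids across membranes. Those of the so-called system A class (Slc38a1, Slc38a2 and Slc38a4) take up alanine, serine, glutamine and similar substrates together with sodium. System N carriers (Slc38a3 and Slc38a5) prefer glutamine, histidine and asparagine and exchange protons, so that they can run in either direction. Slc38a7 and Slc38a9 sit on lysosomes, where Slc38a9 senses arginine for the growth-controlling kinase complex mTORC1. Slc38a6 and Slc38a10 are less well characterized. Slc38a2 is a known target of the transcription factor ATF4 when cells are short of amino acids, and mouse Slc38a4 is imprinted, with expression from the paternal copy in several tissues.

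Slc38a1, Slc38a2 and Slc38a4 lie in a row on chromosome 15, all on the minus strand, at 96571418 to 96642913, 96687392 to 96699730 and 96994820 to 97055956 (GENCODE M21 on GRCm38). Gaps of 44.5 kb and 295.1 kb separate them, with no other gene of the count table in between. The other members lie apart: Slc38a3 on chromosome 9 (107650634 to 107669530), Slc38a5 on X (8271133 to 8280179), Slc38a6 on 12 (73286779 to 73354049), Slc38a7 on 8 (95835920 to 95853539), Slc38a9 on 13 (112660751 to 112738749) and Slc38a10 on 11 (120103960 to 120151346). RefSeq promoter windows on GRCm38.p6 were found for 7 of the 9 members at 9 start sites, and Slc38a1 and Slc38a3 had none. Windows of 250 bases before the start are printed for the members whose levels did not overlap between the media. Capitals mark matches on either strand to the CCAAT box known to bind NF-Y, to the GC box GGGCGG known from SP1-type factors, to the E-box CACGTG, or to the TATA box searched as TATAAA. Which start the transcripts of Slc38a4 used was not measured. Of its 3 annotated starts, 2 are shown, and the third, left out, held no match to any motif searched.
Slc38a2, minus strand, chr15:96699729-96699978: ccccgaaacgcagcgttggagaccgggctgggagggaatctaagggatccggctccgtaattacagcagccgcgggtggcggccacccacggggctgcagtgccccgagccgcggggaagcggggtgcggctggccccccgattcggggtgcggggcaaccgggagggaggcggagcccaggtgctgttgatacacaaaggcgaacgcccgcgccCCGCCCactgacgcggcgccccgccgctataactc
Slc38a4 first start, minus strand, chr15:97055957-97056206: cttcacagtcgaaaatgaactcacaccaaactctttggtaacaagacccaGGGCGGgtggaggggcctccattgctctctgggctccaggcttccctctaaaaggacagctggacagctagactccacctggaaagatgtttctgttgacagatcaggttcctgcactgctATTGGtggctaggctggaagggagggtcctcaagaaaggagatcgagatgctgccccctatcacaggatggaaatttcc
Slc38a4 second start, minus strand, chr15:97031214-97031463: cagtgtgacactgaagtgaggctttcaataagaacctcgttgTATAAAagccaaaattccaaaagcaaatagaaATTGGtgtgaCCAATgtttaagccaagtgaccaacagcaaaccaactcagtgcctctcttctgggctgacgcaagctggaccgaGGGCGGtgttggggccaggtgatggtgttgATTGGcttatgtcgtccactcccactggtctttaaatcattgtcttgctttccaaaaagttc
Slc38a5, plus strand, chrX:8271131-8271380: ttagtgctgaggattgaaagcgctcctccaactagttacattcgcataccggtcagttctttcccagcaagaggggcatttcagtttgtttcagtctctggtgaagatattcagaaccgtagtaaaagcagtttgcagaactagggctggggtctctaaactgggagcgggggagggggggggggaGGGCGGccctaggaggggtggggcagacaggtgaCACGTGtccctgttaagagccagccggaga

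The windows differed in base composition. That of Slc38a2 held 30 CpG sites and was 72.0% G or C, with fewer CpG sites in 94.1% of the 32841 promoter windows of the table. The Slc38a4 windows held 3, 5 and 5 CpG sites and were 52.8%, 46.0% and 47.2% G or C, beside a median of 6 sites and 52.4% over all windows. The GC-box letters GGGCGG occurred in the windows of Slc38a2, Slc38a5, Slc38a9, Slc38a10 and the first and second starts of Slc38a4, and in 32.7% of all windows. The letters CCAAT were found at the first and second starts of Slc38a4 and in Slc38a10, against 33.9% of all windows. The E-box CACGTG, bound by MYC-type and Mondo-type factors, occurred in Slc38a5 and Slc38a7, 30 and 34 bases before the start, and in 6.02% of all windows. TATAAA was present at the second start of Slc38a4 alone among the members, and in 12.4% of all windows. The ATF4-type letters TGATGNAA occurred in 0 of the 9 member windows and in 3.45% of all windows. Sequence outside the windows, such as the first intron of Slc38a2, was not searched, so sites there were not read. These matches are descriptions of letters, not of bound sites, and the letters of the motifs searched did not overlap one another in the windows printed.

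Slc38a4 was the member with the tightest values and a clear gap between the media. Its level, in counts scaled to a common library size with TMM factors (CPM), was 104, 108 and 102 across the controls in replicate order, against 57.9, 56.8 and 57.7 with pyruvate. The groups did not overlap, and every pyruvate library lay far below every control library. The means were 105 ± 2.703 and 57.4 ± 0.60 CPM (SD, n = 3 per group). On the log2 scale the difference was -0.87 (SE 0.072), or 1.82-fold lower in pyruvate medium. The counts behind these levels ran from 1270 to 2740 per library. In bulk RNA, fewer cells that express a gene and less RNA per cell cannot be told apart.

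Slc38a1, a broadly expressed system A carrier of glutamine and alanine, was also lower in pyruvate medium. It reached 118, 131 and 117 CPM across the controls, against 78.4, 91.5 and 90.4 CPM with pyruvate. The groups did not overlap, control replicate 2 was the highest library and pyruvate replicate 1 the lowest. The means were 122 ± 7.76 and 86.8 ± 7.27 CPM (SD, n = 3 per group), a log2 difference of -0.49 (SE 0.091). Slc38a2, the system A carrier that cells induce when amino acids run short, reached 234.5, 309 and 242 CPM across the controls, against 195, 210.4 and 205 CPM with pyruvate. Its groups did not overlap either, but control replicate 2 lay far above the other controls and made up much of the control spread of 40.8 CPM (SD). The pyruvate mean was 204 ± 7.86 CPM. The log2 difference was -0.36 (SE 0.11), and -0.23 without control replicate 2, when the control mean was 238 CPM in place of 262. Summed over Slc38a1, Slc38a2 and Slc38a4, the level was 457, 547 and 461 CPM across the controls, against 331, 359 and 354 CPM with pyruvate. The other 6 members together held 257 to 265 and 266 to 289 CPM. The neighbours on chromosome 15 made up 63.3% to 67.9% of the family's CPM in control libraries and 53.4% to 57.4% in pyruvate libraries. Differences of Slc38a1, Slc38a2 and Slc38a4 were used in the choice of the family. The direction of these sums and shares follows from that choice and is only described. Within the trio Slc38a2 stood at 2.26 to 2.87 times the CPM of Slc38a4 in control and at 3.37 to 3.71 times in pyruvate medium.

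**Figure D1:**
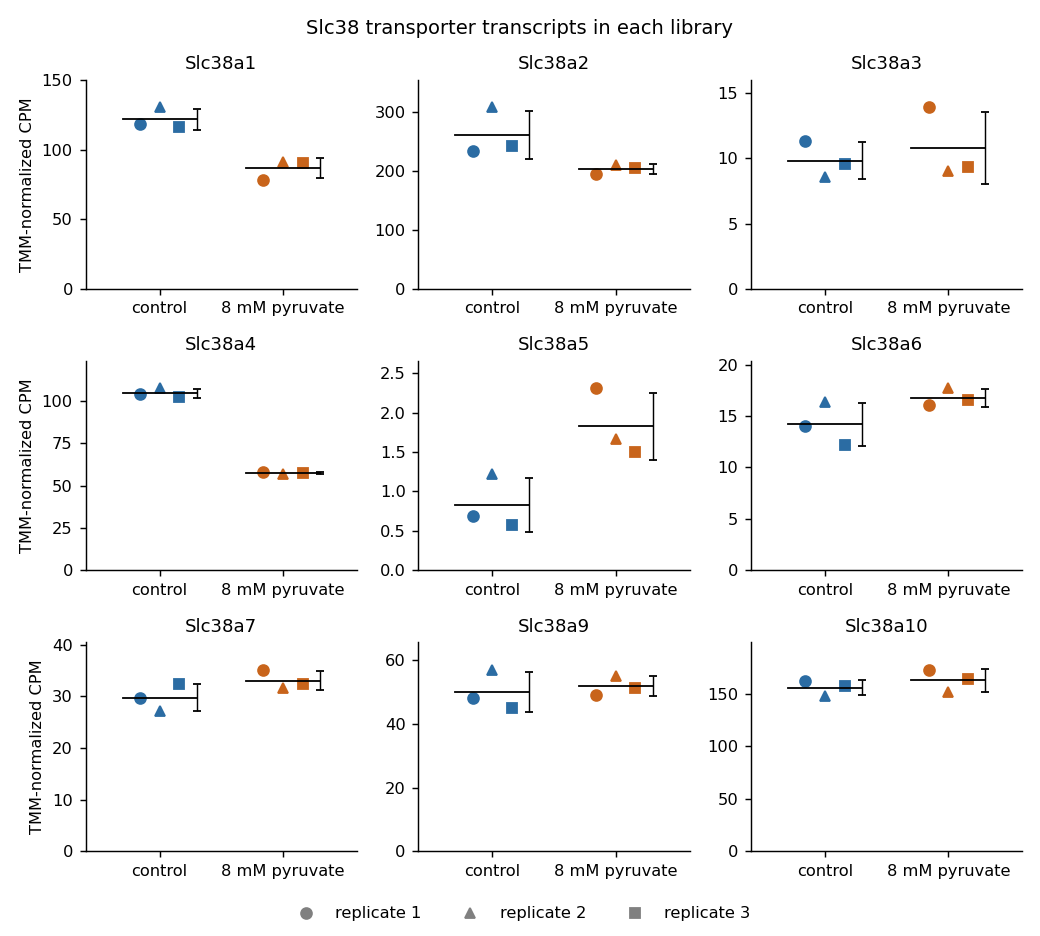
TMM-normalized CPM (vertical axes, from 0) of the 9 Slc38 genes in each library, by medium; symbols mark replicates, lines the means and bars the SD of 3 libraries. The groups are apart for Slc38a1, Slc38a2, Slc38a4 and Slc38a5, and control replicate 2 is the highest library for Slc38a1 and Slc38a2.

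Among the system N carriers, Slc38a5 was higher in pyruvate medium at a very low level and Slc38a3 showed no separation. Slc38a5, a glutamine and glycine carrier, had 0.69, 1.22 and 0.57 CPM across the controls, against 2.31, 1.67 and 1.5 CPM with pyruvate. These levels rest on 15, 31 and 12 counts in the controls and on 58, 43 and 33 counts with pyruvate. The groups did not overlap, with control replicate 2 close to the lowest pyruvate library, and the means were 0.83 ± 0.34 and 1.83 ± 0.43 CPM. The log2 difference was 1.12 (SE 0.32), or 2.17-fold. Without control replicate 2 it was 1.53. Slc38a3, the glutamine exchanger best known from liver, kidney and astrocytes, had 11.4, 8.56 and 9.60 CPM across the controls, against 13.95, 9.08 and 9.36 CPM with pyruvate, where replicate 1 alone lay above the controls. Its log2 difference of 0.14 (SE 0.19) turned to -0.09 without pyruvate replicate 1.

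The lysosomal members and the 2 less characterized ones had overlapping groups. Slc38a9, the arginine sensor, had 47.9, 56.9 and 44.8 CPM across the controls, against 49.0, 55.0 and 51.2 CPM with pyruvate (log2 0.05, SE 0.11). Slc38a7, which exports glutamine and asparagine from lysosomes, had 29.8, 27.1 and 32.3 CPM across the controls, against 35.2, 31.6 and 32.4 CPM with pyruvate (log2 0.15, SE 0.098). All pyruvate values of Slc38a9 lay inside the control range, and for Slc38a7 1 did while the others lay above it. Slc38a6 had 14.1, 16.3 and 12.1 CPM across the controls, against 16.02, 17.7 and 16.55 CPM with pyruvate (log2 0.24, SE 0.13), with control replicate 2 inside the pyruvate range. Without control replicate 2 the groups of Slc38a9 and Slc38a6 did not overlap, and their log2 differences were 0.16 and 0.35. Groups separate more easily with fewer control libraries, and the share of all tested genes that then did so was not computed. Slc38a10 had 161.5, 148 and 157.5 CPM across the controls, against 173, 151 and 163.5 CPM with pyruvate (log2 0.06, SE 0.079), with replicate 2 the lowest in both media. Exons of Slc38a9 and Slc38a10 overlap the annotated genes Gm47827 and Gm11769 on the opposite strand. No source used here states the strand setting of the counting, which leaves those counts uncertain to that extent.

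Over the 9 members, 3 lay below 0 and 6 above, with a median log2 difference of 0.06 beside -0.01 over all 14912 tested genes, of which 51.9% lay below 0. The groups did not overlap for 4 of the 9, beside 22.5% of all tested genes. In the lists described below, the groups were also apart for 7 of 16 other neutral carriers and 9 of 24 amino acid response genes. The counts were 10 of 38 for the lysosomal list, 5 of 22 for the enzymes and 5 of 18 for the chromosome neighbours. For the cationic and anionic carriers it was 2 of 8, and for transporter turnover 1 of 8. By edgeR's quasi-likelihood test adjusted over all genes, 1 member, Slc38a4, was past the threshold of 0.05, beside 0.0536% of all tested genes (0.0201% higher and 0.0335% lower). DESeq2 called 2 members, Slc38a4 and Slc38a1, beside 2.13% of all genes, as did the fit with the replicate number as a block, beside 1.78%. With each library's GC and length trend removed, 3 members were called, Slc38a2 with them, beside 3.95%. The family was chosen with this contrast in view, so nothing is read from these shares. Slc38a4 was not past the threshold without control replicate 3 or any 1 of the pyruvate libraries, which is given as a description since its difference was used in the choice. Its log2 difference ran from -0.88 to -0.81 over all 15 alternatives. They reuse the same libraries, so this range is likewise a description.

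**Figure D2:**
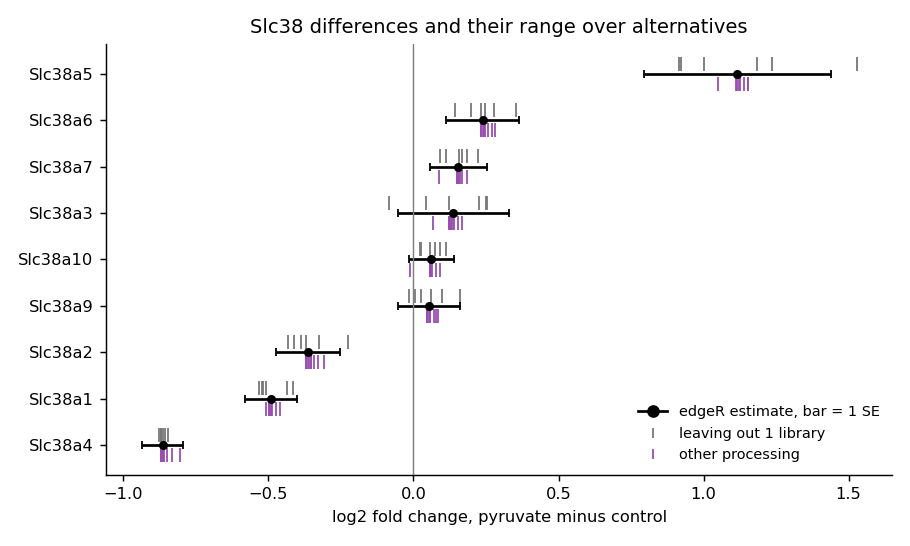
Log2 fold change (horizontal axis, pyruvate minus control) of each Slc38 gene with its SE, beside the values when 1 library is left out and under the other processing choices. Slc38a4 lies between -0.88 and -0.81, while Slc38a3, Slc38a9 and Slc38a10 straddle 0.

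Control replicate 2 stood apart from the other controls over the whole table, at 36.5 on the first principal component with the others at -4.12 and 0.81. On the same axis the pyruvate libraries had -27.2, -1.42 and -4.64, replicate 1 being farthest from the rest. The members did not follow control replicate 2 alike. Relative to the mean of control replicates 1 and 3 its log2 CPM was higher by 0.87 for Slc38a5, 0.37 for Slc38a2, 0.32 for Slc38a6, 0.29 for Slc38a9 and 0.15 for Slc38a1. It was lower for Slc38a3 (-0.28), Slc38a7 (-0.19) and Slc38a10 (-0.11). For Slc38a4 the deviation was 0.06. The part this library plays in the differences of the other members was not tested beyond leaving it out. Without it, 3 members were past the threshold, Slc38a4, Slc38a1 and Slc38a5, beside 4.16% of the 15042 genes then tested. Because the family was chosen on this contrast in the same libraries, nothing is read from that count. Library totals ran from 20918312 to 26413080 counts. Germ cell markers were abundant in both groups. The 8 pan-germ cell markers summed to 1880 to 2380 CPM in control and 1900 to 2060 CPM in pyruvate libraries, and the 14 markers of undifferentiated spermatogonia to 3720 to 4020 and 3610 to 3880 CPM. The 7 markers of differentiating spermatogonia summed to 675 to 738 and 556 to 712 CPM. No gene of these 3 lists was past the threshold in edgeR, but Bcl6b (356 to 369 and 189 to 306 CPM), Lhx1 (155 to 178 and 82.6 to 152 CPM), Sohlh2 (369 to 377 and 307 to 319 CPM) and Rhox13 (43.8 to 58.3 and 37.2 to 38.3 CPM), named after their values were seen, were lower in every pyruvate library. Nanos2 (5.70 to 7.08 and 8.00 to 11.6 CPM) and Nanos3 (16.5 to 25.5 and 27.7 to 39.2 CPM), named likewise, were higher in every one. Sohlh1, named likewise and in the same list as Sohlh2 and Rhox13, was higher too (44.5 to 54.3 and 54.5 to 93.9 CPM). Of all tested genes, 22.5% had groups that did not overlap. Of 15 fibroblast and feeder markers, 0 were at 0 in all libraries, and they summed to 426 to 501 and 415 to 453 CPM, mostly Fn1. Fn1 was lower in every pyruvate library (302 to 352 and 281 to 286 CPM), as was Pdgfra. Col1a1 was higher in every one (48.5 to 53.0 and 57.6 to 82.0 CPM), and the groups of the other feeder markers overlapped. Pdgfra and Col1a1 were named after their values were seen. Endothelial markers summed to 78.9 to 81.4 and 87.0 to 108 CPM, led by Erg (43.5 to 46.7 and 51.0 to 79.5 CPM). Vwf went the other way (10.1 to 10.3 and 8.19 to 8.59 CPM), and the groups of the other endothelial markers overlapped. The 10 Sertoli markers summed to 536 to 551 and 507 to 566 CPM, nearly all from Dmrt1, which germ cells also express, with Fshr at 0. Leydig markers reached at most 4.01 CPM in sum, with Hsd3b1, Hsd3b6, Insl3 and Lhcgr at 0, and macrophage markers 8.31 CPM, with Adgre1 at 0. The part of any such cells, or of a shift among germ cell states, in the Slc38 levels was not tested.

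Within complete medium the members spanned a wide range once levels were divided by gene length. On the scale of CPM per kilobase of merged exons, Slc38a2 led at 29.6 ± 4.62 (SD, n = 3), followed by Slc38a4 at 24.6 ± 0.63 and Slc38a10 at 24.3 ± 1.07, whose libraries overlapped. Slc38a7 (7.17 ± 0.63) and Slc38a1 (7.07 ± 0.45) overlapped as well, then came Slc38a9 at 2.99 ± 0.37, Slc38a3 at 1.87 ± 0.27 and Slc38a6 at 1.82 ± 0.27, the last pair overlapping, and Slc38a5 at 0.37 ± 0.15. The libraries of all other neighbours in this order did not overlap. In pyruvate medium Slc38a10 (25.3 ± 1.68) and Slc38a2 (23.0 ± 0.89) overlapped at the head, and Slc38a4 followed at 13.5 ± 0.14. The order depends on the length used: with the longest annotated transcript in place of merged exons, an alternative added after the data were seen, Slc38a10 came before Slc38a4 in control, and Slc38a1, whose merged exons are 17236 bases against 7266 for its longest transcript, stood at 16.8 in place of 7.07, above Slc38a7. Slc38a2 led and Slc38a5 was last in control by either length. The other Slc38 genes in the table were close to silent: Slc38a11 had 0 counts in every library, which allows 0.114 to 0.143 CPM by counting error, and Slc38a8 had 0 to 7 counts.

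**Figure D3:**
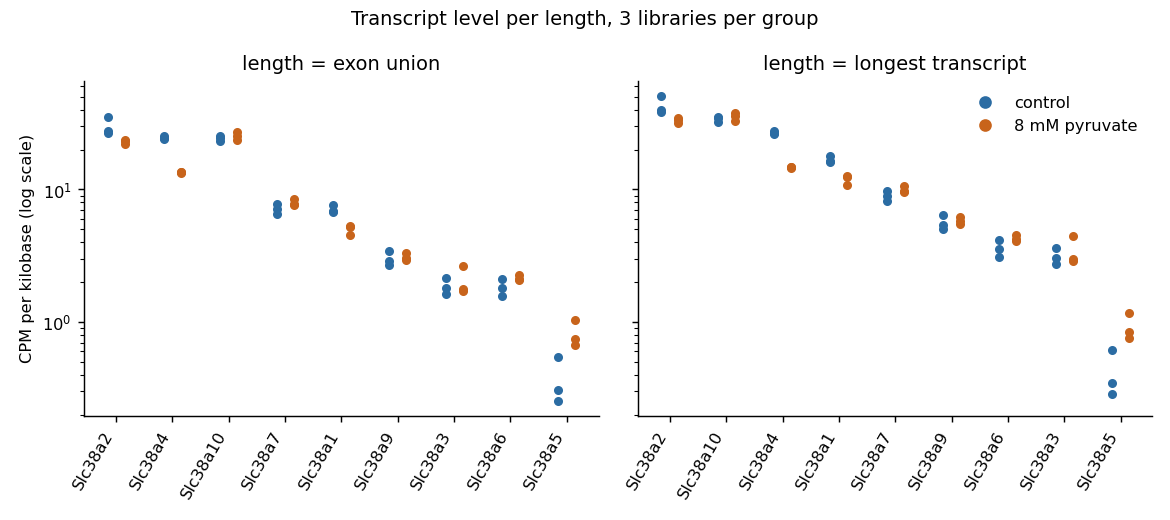
CPM per kilobase (vertical axis, log scale) of the 9 Slc38 genes in 3 control and 3 pyruvate libraries, with the length taken as merged exons (left) or as the longest transcript (right). Slc38a2, Slc38a4 and Slc38a10 form the upper end and Slc38a5 the lower end in both panels, and the place of Slc38a1 changes with the length.

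The members differ widely in sequence. Aligned end to end with free end gaps, the longest coding sequences of Slc38a1 to Slc38a6 shared 55.8% to 66.9% of aligned bases over the 15 pairs, and the 21 pairs with Slc38a7, Slc38a9 or Slc38a10 gave no alignment of 1000 bases. The closest pair was Slc38a3 with Slc38a5, the system N carriers, at 66.9%. Slc38a2 and Slc38a4 shared 66.0%, Slc38a1 and Slc38a4 63.0%, and Slc38a1 and Slc38a2 61.5%.

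The genes around the chromosome 15 trio held values on both sides of 0. Within 1 Mb of the outer ends, the table holds 29 other genes, of which 18 were tested. By edgeR's test adjusted over all genes 0 of 18 were past the threshold, beside 0.0536% of all tested genes, and 0 by DESeq2 and limma-voom. At an unadjusted p under 0.05 there were 3 higher and 1 lower, beside 14.4% of all tested genes in either direction. Their log2 differences ran from -0.44 to 0.81 with a median of -0.04, and of 0.03 without control replicate 2. Genes at low levels formed both ends of this range. These were Endou, at 0.81 and 0.60 CPM in control and pyruvate medium (SE 0.333), and Vdr, at 1.345 and 2.37 CPM. The next values inward were -0.22 for Senp1 and 0.43 for Amigo2. Exons of Senp1 overlap genes on the opposite strand. On the far side of Slc38a4, Gm32885, a noncoding RNA gene, stood at 0.10 (SE 0.100) and Pced1b at 0.03 (SE 0.11). On the far side of Slc38a1, the splicing factor gene Scaf11 stood at -0.03 (SE 0.085) and the chromatin remodelling gene Arid2 at -0.14 (SE 0.22). When control replicate 2 was left out, Gm32885 kept its sign at 0.045. The values of the others changed sign, to 0.05 for Scaf11, 0.13 for Arid2 and -0.07 for Pced1b. The lowest p among them belonged to Amigo2, a cell adhesion gene, at 11.3 ± 1.71 and 15.2 ± 0.79 CPM in control and pyruvate medium (log2 0.43, SE 0.13, edgeR adjusted p = 0.202), whose exons overlap Pced1b on the opposite strand. Without control replicate 2, Amigo2 was past the threshold, higher in pyruvate medium (log2 0.56, edgeR adjusted p = 0.0252), beside 4.16% of all genes. Next came the vitamin D receptor gene Vdr (log2 0.81, SE 0.27, edgeR adjusted p = 0.234) and Tmem106c (log2 0.31, SE 0.11, edgeR adjusted p = 0.271). Whether the trio's differences depart from those of its neighbours was not tested.

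**Figure D4:**
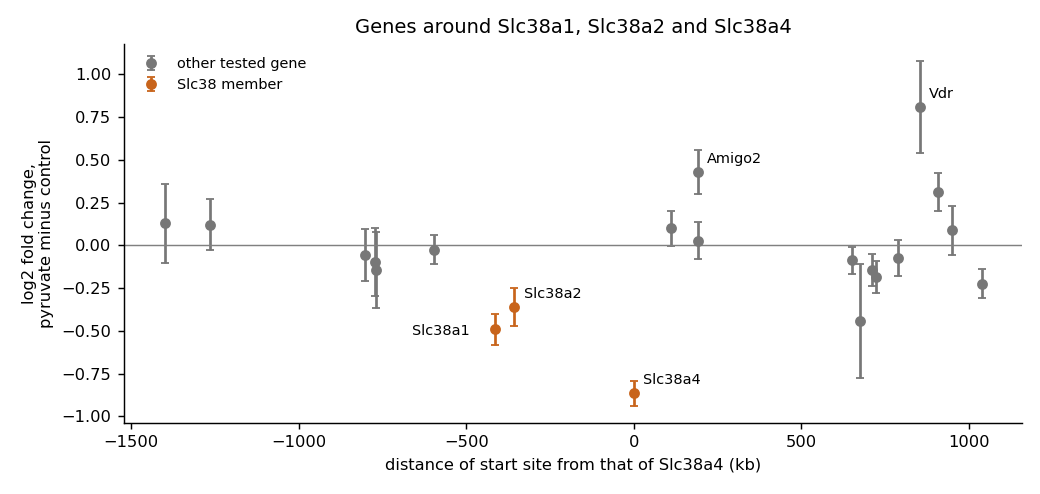
Log2 fold change (vertical axis, pyruvate minus control, bars 1 SE) of tested genes within 1 Mb of the Slc38a1, Slc38a2 and Slc38a4 row, by distance of the start site from that of Slc38a4. The 3 Slc38 genes lie between -0.87 and -0.36, and the other 18 genes between -0.44 and 0.81. Endou and Vdr, both at low levels, form the ends of that range.

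The genes whose log2 CPM followed Slc38a4 most closely over the 6 libraries were named by Pearson correlation among 10503 genes of at least 5 CPM. With 2 groups of 3 libraries such a value mostly reflects a gap between the groups and small spread, and it is a description. The 5 highest were Dlst (0.997), a subunit of the oxoglutarate dehydrogenase of the TCA cycle, Lix1l (0.997), the mitochondrial isocitrate dehydrogenase Idh2 (0.997), Igf2 (0.996) and the exonuclease gene Exo1 (0.994). They differed in size. Dlst stood at 227 ± 0.78 and 213 ± 0.15 CPM (log2 -0.10), Idh2 at 6.73 ± 0.33 and 4.06 ± 0.037 CPM (log2 -0.73), and Igf2, a paternally expressed growth factor gene, at 179 ± 6.08 and 112 ± 2.49 CPM (log2 -0.67). The 3 lowest correlations were those of Pgbd5 (-0.995), Tns1 (-0.992) and Col22a1 (-0.992). Lix1l, Igf2 and Col22a1 share exon positions with genes of the other strand, and Igf2 also with Gm49394 on its own. Among the members, Slc38a1 and Slc38a2 correlated with Slc38a4 at 0.946 and 0.828, and Slc38a5 at -0.822.

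Other carriers of neutral amino acids showed no call in either direction. Of 24 such genes 16 were tested, and by edgeR's test over all genes 0 were past the threshold, beside 0.0536% of all tested genes. At an unadjusted p under 0.05 there were 3 higher and 3 lower, beside 14.4% of all tested genes, and DESeq2 and limma-voom called 0. Their median log2 difference was 0.05, and 10 lay above 0. The large neutral amino acid exchanger Slc7a5 stood at 585 ± 25.9 and 595 ± 9.22 CPM (log2 0.02, SE 0.068) and its partner chain Slc3a2 at 279 ± 34.8 and 288 ± 7.95 CPM (log2 0.05, SE 0.098). Slc1a5, the sodium-dependent glutamine exchanger, stood at 64.6 ± 5.61 and 67.9 ± 3.26 CPM (log2 0.07, SE 0.092). Leaving out control replicate 2, Slc3a2 stood at log2 -0.05, and Slc7a5 and Slc1a5 at -0.003 and 0.002. By lowest p came the branched-chain carrier Slc43a2 (26.1 ± 1.64 and 34.8 ± 3.86 CPM, log2 0.41, edgeR adjusted p = 0.167), the alanine and serine exchanger Slc1a4 (16.2 ± 0.29 and 23.3 ± 5.38 CPM, log2 0.53, edgeR adjusted p = 0.201) and the cationic and neutral exchanger Slc7a7 (20.6 ± 2.73 and 15.5 ± 1.41 CPM, log2 -0.41, edgeR adjusted p = 0.218). For Slc1a4 the pyruvate values were 29.4, 21.2 and 19.3 CPM, all above the controls at 15.9 to 16.4, with replicate 1 the highest. Without control replicate 2, Slc43a2 was past the threshold upward (adjusted p = 0.0369 in edgeR) and Slc7a7 downward (adjusted p = 0.0379), beside 4.16% of all genes. Exons of Slc43a2 overlap Gm45606, and those of Slc7a7 overlap Oxa1l, on the opposite strand.

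Of 10 carriers of cationic and anionic amino acids 8 were tested, and 0 were past the threshold by edgeR, DESeq2 or limma-voom (0.0536% of all tested genes by edgeR), with 1 higher and 1 lower at an unadjusted p under 0.05, beside 14.4% of all genes. Their median log2 difference was -0.06, and 0.09 without control replicate 2. The arginine and lysine carrier Slc7a1 stood at 176 ± 34.2 and 161 ± 11.1 CPM (log2 -0.13, SE 0.13), and at log2 0.04 without control replicate 2, which held 215 CPM against 152 and 160.1 in the other controls. The lowest p values were those of Slc7a4 (2.58 ± 0.42 and 3.99 ± 0.23 CPM, log2 0.62, edgeR adjusted p = 0.175), Slc1a3 (0.51 ± 0.070 and 0.21 ± 0.082 CPM, log2 -1.29, edgeR adjusted p = 0.222) and the glutamate carrier Slc1a2 (log2 0.24, edgeR adjusted p = 0.655). Without control replicate 2, Slc7a4 was past the threshold upward (adjusted p = 0.0448 in edgeR), beside 4.16% of all genes. DESeq2 gave Slc1a3 no adjusted p. Exons of Slc7a4 and Slc1a2 overlap genes on the opposite strand.

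A list of 24 genes covered enzymes that make or use glutamine or alanine, well-known SNAT substrates. It also held enzymes that act on neither, such as the aspartate aminotransferases Got1 and Got2. Of the 24 genes 22 were tested, with a median log2 difference of -0.07 and 15 below 0. By edgeR and limma-voom 0 were past the threshold, with 1 higher and 1 lower at an unadjusted p under 0.05, beside 14.4% of all tested genes. DESeq2 called 1, Got1, beside 2.13% of all genes. Got1, the cytosolic aspartate aminotransferase, stood at 51.3 ± 3.84 and 39.1 ± 2.92 CPM (log2 -0.39, SE 0.097, edgeR adjusted p = 0.155). It was past the threshold downward without control replicate 2 (adjusted p = 0.0204 in edgeR), beside 4.16% of all genes. Nadsyn1, a glutamine-using NAD synthetase, stood at 14.7 ± 0.12 and 17.6 ± 0.34 CPM (log2 0.26, edgeR adjusted p = 0.241), and Got2, the mitochondrial aspartate aminotransferase, at 117 ± 8.48 and 103 ± 6.02 CPM (log2 -0.18, edgeR adjusted p = 0.393). Got1 and Got2 were past the threshold downward with each library's GC and length trend removed (adjusted p = 0.0128 and 0.0403 in edgeR), beside 3.95% of all genes. Exons of Got2 overlap Gm45760 on the opposite strand. Glul, the glutamine synthetase gene, stood at log2 -0.13 (SE 0.070). Exons of Glul overlap Mir8114 on the same strand and Teddm2 on the other.

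The amino acid response list, which follows the kinase GCN2 and the factor ATF4, held 24 tested genes, 16 above 0, with a median log2 difference of 0.04. By edgeR and limma-voom 0 were past the threshold, with 6 higher and 1 lower at an unadjusted p under 0.05, beside 14.4% of all tested genes. DESeq2 called 2 higher, Ddit3 and Trib3, beside 2.13% of all genes. Ddit3, a stress transcription factor, stood at 5.45 ± 0.80 and 9.67 ± 2.06 CPM (log2 0.83, edgeR adjusted p = 0.134), and its exons overlap genes on both strands. Trib3, a pseudokinase induced by ATF4, stood at 12.2 ± 1.53 and 19.9 ± 4.71 CPM (log2 0.71, edgeR adjusted p = 0.155), and Chac1, a glutathione-degrading enzyme, at 3.72 ± 0.51 and 5.57 ± 0.89 CPM (log2 0.59, edgeR adjusted p = 0.195). Both Ddit3 and Trib3 were past the threshold upward with the GC and length trend removed (adjusted p = 0.0306 and 0.0285 in edgeR), beside 3.95% of all genes. Atf4 itself stood at 127 ± 11.5 and 140.1 ± 8.52 CPM (log2 0.14, SE 0.091) and Eif2ak4, which encodes GCN2, at 91.9 ± 6.55 and 92.0 ± 3.55 CPM (SE of the log2 difference 0.082). Several carriers and enzymes, among them Slc7a5, Slc3a2 and Asns, belong to more than 1 list.

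Genes of lysosomal amino acid sensing, the pathway of Slc38a9, gave log2 differences from -0.24 to 0.28. All 38 were tested, 29 lay above 0, and the median log2 difference was 0.05. By edgeR, DESeq2 and limma-voom 0 were past the threshold, with 5 higher and 1 lower at an unadjusted p under 0.05, near the background of 14.4% of all tested genes. That count depended on the libraries used. Without control replicate 2 it was 14 of 38 in edgeR, beside 3273 of the 15042 genes then tested. Leaving out any other library gave 1 to 3, beside 1433 to 1884 of all genes then tested. Sesn1, of the sestrin family, stood at 26.5 ± 0.33 and 32.3 ± 1.01 CPM (log2 0.28, edgeR adjusted p = 0.189), Flcn, which controls the Rag GTPases, at 88.7 ± 1.71 and 102 ± 0.92 CPM (log2 0.20, edgeR adjusted p = 0.265) and Rptor, the mTORC1 scaffold, at 96.8 ± 4.34 and 109.8 ± 3.21 CPM (log2 0.18, edgeR adjusted p = 0.317). Exons of Rptor overlap Rptoros on the opposite strand. Without control replicate 2, Fnip2, a partner of folliculin, was past the threshold upward (log2 0.38, adjusted p = 0.0184 in edgeR), beside 4.16% of all genes. Of 8 genes of transporter turnover and the SGK kinases, 0 were past the threshold by the 3 tools and 1, Sgk1, was higher at an unadjusted p under 0.05, beside 14.4% of all genes. Sgk1, a kinase that raises carrier abundance at the cell surface, stood at 24.1 ± 0.95 and 29.7 ± 2.02 CPM (log2 0.31, edgeR adjusted p = 0.201). Nedd4, of the ubiquitin ligase family that removes membrane carriers, stood at 545 ± 79.3 and 484 ± 19.5 CPM (log2 -0.17, edgeR adjusted p = 0.500), and Itch, of the same family, at log2 -0.25 (edgeR adjusted p = 0.627). These values rested on control replicate 2: without it Nedd4 stood at log2 -0.05 and Itch at 0.04, and the median of the 8 genes was 0.02 in place of -0.14.

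**Figure D5:**
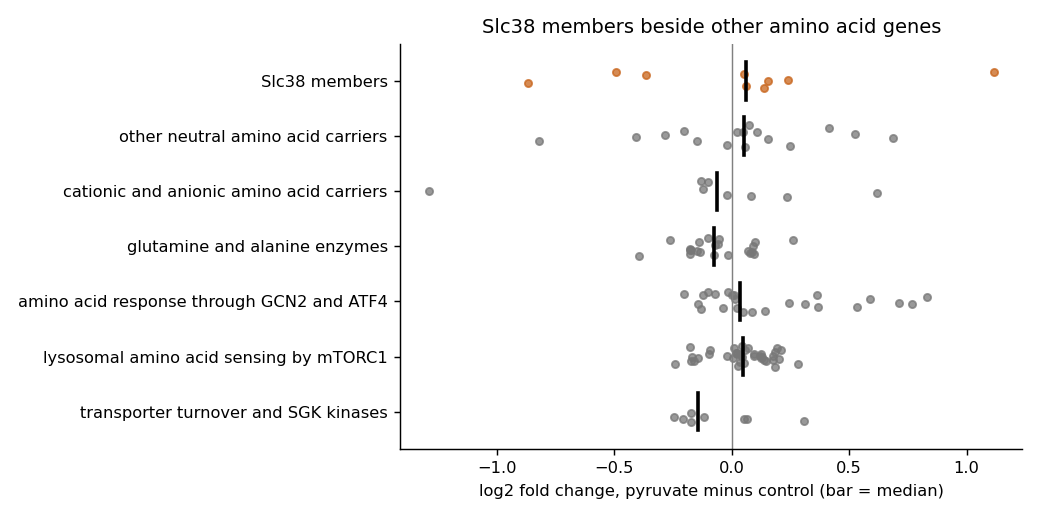
Log2 fold change (horizontal axis, pyruvate minus control) of the 9 Slc38 genes and of tested genes in 6 related lists, with medians as bars. The medians lie between -0.14 and 0.06, and the Slc38 genes reach from -0.87 to 1.12.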

How the data were processed

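Stranded mRNA libraries were prepared from TRIzol-extracted, column-cleaned RNA, per the labels' protocols. The values are raw counts of reads per gene, as the authors deposited them. Among tools, the submitters' processing notes list HTSeq 2.0.5, STAR 2.7.11a, cutadapt 4.6 and bcl2fastq 2.20, and as build mm10. Annotation release and strand setting: not given in the sources used here. The table has 3 more columns, which fit none of the samples described here and were left out, and 0 lines lacked a gene identifier.

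The quasi-likelihood test of edgeR 4.0.16 (R 4.3.3) was run with TMM scaling, robust dispersions and no covariate on the 14912 genes that filterByExpr retained at a minimum of 10 counts. P-values were adjusted over all tested genes by Benjamini-Hochberg at 0.05. Log2 differences come from that fit, and their SE is the difference divided by the square root of F. No label says that the 3 libraries of a group came from separate cultures. The p-values then reflect spread among libraries alone, which may be technical. Library pairs within groups differed by more than sampling noise (chi-square per gene 2.97 to 43.3). Log2 CPM used a prior count of 2. Floors are 3 counts and, like intervals, cover counting error only.

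Gene positions, exon overlaps and lengths are those of GENCODE M21 and promoters those of RefSeq. Proteins were not used here. Coding sequences were aligned with Biopython 1.88. The members and lists were chosen with earlier results of these data known. Named genes are the 9 members, for each list those past the threshold and the 3 of lowest p, and the genes most like Slc38a4. Slc7a5, Slc3a2, Slc1a5, Slc7a1, Glul, Atf4, Eif2ak4 and the genes called under an alternative alone (Fnip2, Slc7a6) were named after their values were seen. So were the neighbours Gm32885, Pced1b, Scaf11, Arid2, Endou and Senp1, and the feeder markers Pdgfra and Col1a1. Alternatives were other scalings and filters, DESeq2 1.42.0, limma-voom 3.58.1, the replicate number as a block, removal of GC and length trends by splines with 5 degrees of freedom, and leaving out each library. The fit was tested on simulated counts.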

Additional observations from a re-analysis of the deposited data

How the results depend on the processing

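The genes past the threshold, 8 (3 higher, 5 lower) with all libraries, became 14 (8 and 6) with library totals, 15 (8 and 7) with upper-quartile scaling, 83 (52 and 31) with no filter, 317 (182 and 135) with DESeq2 and 589 (235 and 354) with GC and length trends removed, and 0 to 625 on leaving out 1 library, the highest (351 and 274) without control replicate 2. Of the 9 Slc38 genes, 1 was past it, against 2 with no filter (Slc38a1 beside Slc38a4), 2 with DESeq2, 3 with trends removed, and 0 to 3 on leaving out 1 library. Without each library in turn, the count was 0 to 2 for the other neutral carriers, 0 to 1 for the cationic and anionic carriers, the enzymes, the lysosomal list and the chromosome neighbours, each against 0. With trends removed it was 1 for the neutral carriers (Slc7a6), 2 for the enzymes and 2 for the amino acid response, and with DESeq2 it was 1 for the enzymes and 2 for the amino acid response. Signs turned for Slc38a3 without pyruvate replicate 1 (-0.086, with 0.253 the highest on leaving out 1 library), Slc38a9 without control replicate 3 (-0.014, highest 0.159) and Slc38a10 with trends removed (-0.012). The other 6 members kept their sign in every alternative that gave a value; Slc38a5 had none with the filter of 5 CPM in 3 libraries. The cause of these changes was not tested.

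With the replicate number as a block, 265 genes (151 and 114) were past the threshold, 2 of them Slc38 genes (Slc38a1 and Slc38a4) and 2 of the amino acid response list. The numbers share no stated source: deviations of same-numbered libraries correlated at 0.311, 0.311 and -0.073, and control replicate 3 correlated best with pyruvate replicate 1. Depth limits Slc38a5, with 12 to 58 counts, most.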
